A study of Drosophila melanogaster with 5 samples.

Results

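The genes described here build and run mitosis: kinases, the spindle checkpoint, kinetochores, condensin, cohesin, motors, centrosomes and the machinery of cytokinesis. They were followed across 5 expression arrays of the Drosophila eye-antennal imaginal disc, a sheet of larval epithelium from which the head's eye and antenna are built, and of tumors in it. The list names 45 genes by their function, and a gene entered where a probe set on the array named that gene alone. This held for 36 of the 45, among 11981 genes with such a probe set. The other 9 (polo, aurA, BubR1, Top2, vtd, Klp3A, asp, pav and cnn) had no probe set named for them and were not analysed here. Of the 36, 35 passed the filter on dim genes, as did 7850 genes in all. The exception was sub, which read between 5.22 in WT control and 5.43 in the scrib mutant, below the filter value of 6.36, and is in none of the counts. All but fzy had a single probe set.

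There were 5 groups with 1 array each. WT control discs (79E control in the labels) carried no tumor. Ras tumors overexpressed Ras and nothing else. The other tumors combined Ras overexpression with a mutation, either Sras mutant 1, Sras mutant 2 or scrib, and the design names the scrib tumors as its positive control. The Sras transcript read 9.56 in WT control, 9.40 in Ras, 9.19 in Sras mutant 1, 9.05 in Sras mutant 2 and 9.65 in the scrib mutant. The scrib transcript read 10.56, 10.76, 11.56, 11.51 and 11.30 in the same order, so it was not lower in the scrib mutant than in WT control or Ras. Since the lesions are not described, and a mutation need not lower its transcript, these levels do not check the labels, and groups are called as labelled. All came from larvae of the third instar, and clones were marked with GFP by MARCM, a technique that makes marked mutant clones among unmarked cells, so a tumor sample may also hold unmarked disc cells. Which alleles and promoter were used, and how many animals each sample holds, the sources used here do not say. With 1 array a group there are no replicates: every difference is between single arrays, no test was made, and the array number limits the precision. Values are log2 signals after quantile normalization, so a difference of 0.58 is 1.5-fold and a difference of 1 is 2-fold. A signal is compared only with the same probe set on another array.

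Mitosis separates replicated chromosomes in a fixed order. Condensin compacts them, cohesin holds sister chromatids together, kinetochores tie them to spindle microtubules, and the checkpoint delays anaphase until all are attached. The anaphase-promoting complex, with its activator Fizzy, then has securin destroyed, and the central spindle directs the cleavage furrow. Transcripts of many of these genes accumulate in G2 and mitosis and are widely used as markers of proliferating tissue. In the eye disc, cells divide ahead of the morphogenetic furrow and once more behind it, and then leave the cycle as photoreceptors are recruited. Cells of the larval salivary gland and fat body grow by endoreplication, in which DNA is copied without mitosis.

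The arrays differed in other ways that touch every comparison below. All 7 eye and all 5 antennal disc markers measured lay above the filter value on every array. In contrast, all 8 salivary gland and gut markers kept were lower in each mutant array than in Ras, with list medians of 14.57 in WT control, 14.25 in Ras, 6.53 and 9.09 in Sras mutants 1 and 2 and 6.16 in the scrib mutant, and 3, 2 and 5 of the 8 below the filter value on the mutant arrays. The medians of 9 muscle markers were 10.38, 10.50, 7.78, 7.58 and 7.25 in the same order, and those of 4 fat body markers were 13.18, 13.06, 10.01, 11.37 and 9.55; against Ras, 8 of 9 muscle and all 4 fat body markers were lower on each mutant array. Their part in the differences between mutant arrays and Ras or WT control was not tested. In a bulk sample, fewer cells of a type and less RNA per cell cannot be told apart. Control probe sets near the 3′ and 5′ ends of ACTIN, GAPDH and eIF-4a transcripts differed by a mean of 1.40 log2 in Ras against 0.88 to 1.00 on the other arrays, and differences from WT control, which do not use the Ras array, are therefore given beside those from Ras.

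After quantile normalization, most mitosis genes read a little higher in all 3 mutant tumors than in Ras tumors and none read 1.5-fold lower, a direction that flips for both Sras mutants when arrays are centred on eye and antennal disc genes. In Sras mutant 1, 34 of 35 lay above Ras, with a median difference of 0.44 log2, or 1.36-fold. In Sras mutant 2, 32 of 35 lay above Ras, with a median of 0.30 (1.23-fold), and in the scrib mutant 30 of 35, with a median of 0.33 (1.26-fold). Among all genes kept, 61.5%, 58.7% and 57.5% lay above Ras in these arrays, with medians of 0.11, 0.08 and 0.12. With each array centred on 12 eye and antennal disc genes, the median was −0.68 in Sras mutant 1 and −0.79 in Sras mutant 2, where 25 and 27 members were at least 1.5-fold lower and 0 higher, and 1.62 in the scrib mutant, where all 35 were at least 1.5-fold higher and 0 lower. All genes moved with them: under that centring their medians were −1.01, −1.01 and 1.41, with 84.5% and 82.8% at least 1.5-fold lower in the Sras mutants and 82.65% higher in the scrib mutant. Under either scaling the member median lay 0.32, 0.22 and 0.21 above that of all genes kept, an offset that no centring of the quantile-normalized values changes. With the deposited values, the medians were 0.49, 0.34 and 0.30 for members and 0.12, 0.08 and 0.04 for all genes kept. The 12 disc genes themselves differ between arrays. The 7 eye markers had median differences from Ras of 1.35, 1.19 and 0.65 in Sras mutants 1 and 2 and the scrib mutant. Those of the 5 antennal markers were 0.45, 0.55 and −2.14. In the scrib mutant both lists were split. The eye markers so (8.86 in Ras, 6.59 in the scrib mutant), eya (10.02, 6.66) and dac (10.48, 7.99) were lower, and the other eye markers higher. Of the 5 antennal markers, 3 were lower (Dll, dan and danr), and ss and al were higher.

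The differences were even rather than large. In Sras mutant 1, 8 members (22.9%) were at least 1.5-fold above Ras, against 13.5% of all genes kept. In Sras mutant 2 there were 5 (14.3%), against 14.1%, and in the scrib mutant 6 (17.1%), against 22.1%, so the share past 1.5-fold was near the background in Sras mutant 2 and under it in the scrib mutant. On the other side, 0 of 35 members were at least 1.5-fold below Ras in any mutant array, where 14%, 14.7% and 19.2% of genes kept were. The SD of the differences over members was 0.24, 0.24 and 0.31, against 0.98, 0.98 and 1.25 over all genes kept. Against WT control the medians were 0.48, 0.33 and 0.31 in Sras mutant 1, Sras mutant 2 and the scrib mutant, and 34, 34 and 30 members lay above it (61.4%, 59.4% and 57.4% of genes kept). At least 1.5-fold higher than WT control were 12, 6 and 11 members, where 16.6%, 16% and 24.5% of genes kept were, and 0, 0 and 1 lower, where 14.8%, 15.2% and 19.5% were. The member medians were thus about as large without the Ras array. In all, 27 of the 35 members lay above both WT control and Ras on all 3 mutant arrays, a pattern met by 40.8% of genes kept. Centring on disc genes left 0 members above Ras in either Sras mutant, so the pattern is lost there. Without quantile normalization the signs against Ras were much the same. With the deposited values 34, 34 and 29 of 35 members lay above Ras, and with each array centred on its median 35, 34 and 32.

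**Figure D1:**
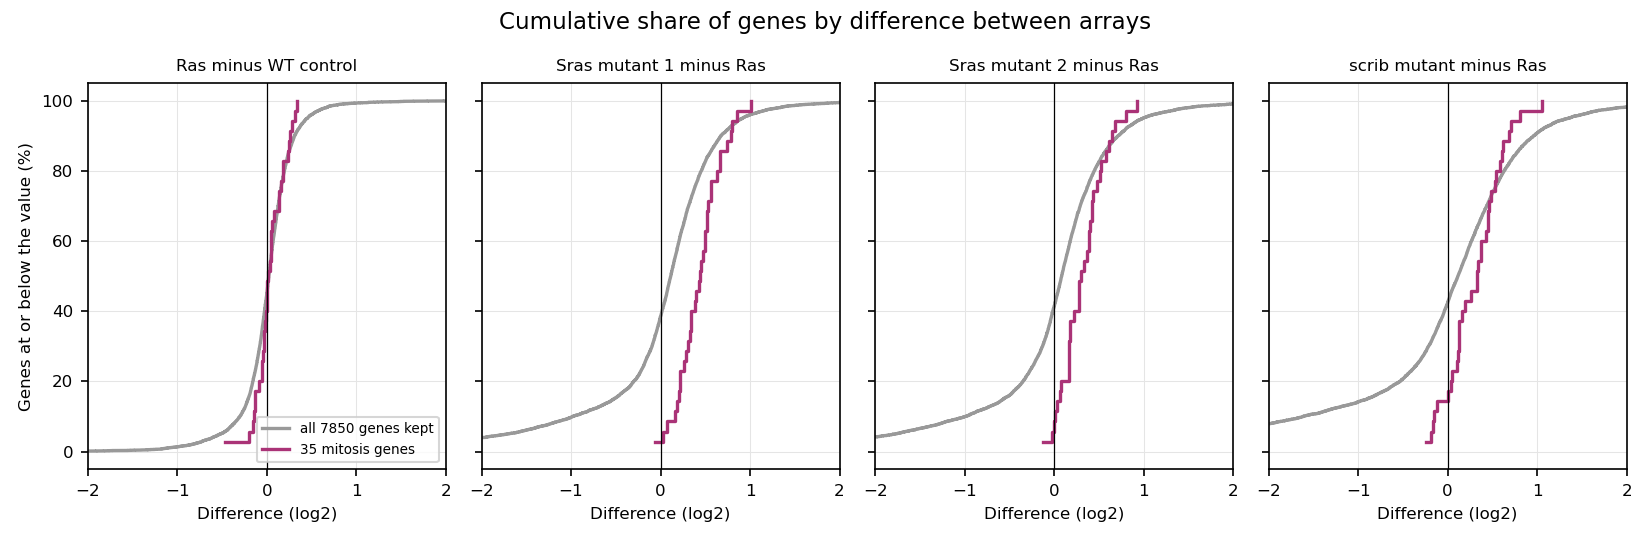
Cumulative share of genes (y axis, percent) at or below a given log2 difference (x axis, cropped at −2 and 2) in 4 comparisons of single arrays, for 35 mitosis genes and all 7850 genes kept, after quantile normalization. The mitosis genes follow all genes in Ras minus WT control; in the 3 mutant arrays minus Ras their curve is steeper and starts near 0, with medians of 0.44, 0.30 and 0.33, which become −0.68, −0.79 and 1.62 when arrays are centred on eye and antennal disc genes, a shift that moves the curve of all genes by the same amount.

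How the members ranked among themselves does not depend on how the quantile-normalized arrays are centred, because a centring shifts every gene of an array by one amount. The ranks can differ without quantile normalization. In the deposited values Mps1 (7.33 in Ras, 7.75 in the scrib mutant) rose less than Klp67A (9.40, 10.03), the reverse of the normalized order. The motors stood highest in Sras mutant 1 among the groups with at least 3 genes measured, with a median difference from Ras of 0.66 over 4 genes, and the checkpoint genes lowest, with 0.24 over 4. In the scrib mutant the kinetochore and motor genes had medians of 0.53 and 0.53, and the checkpoint genes 0.06.

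**Figure D2:**
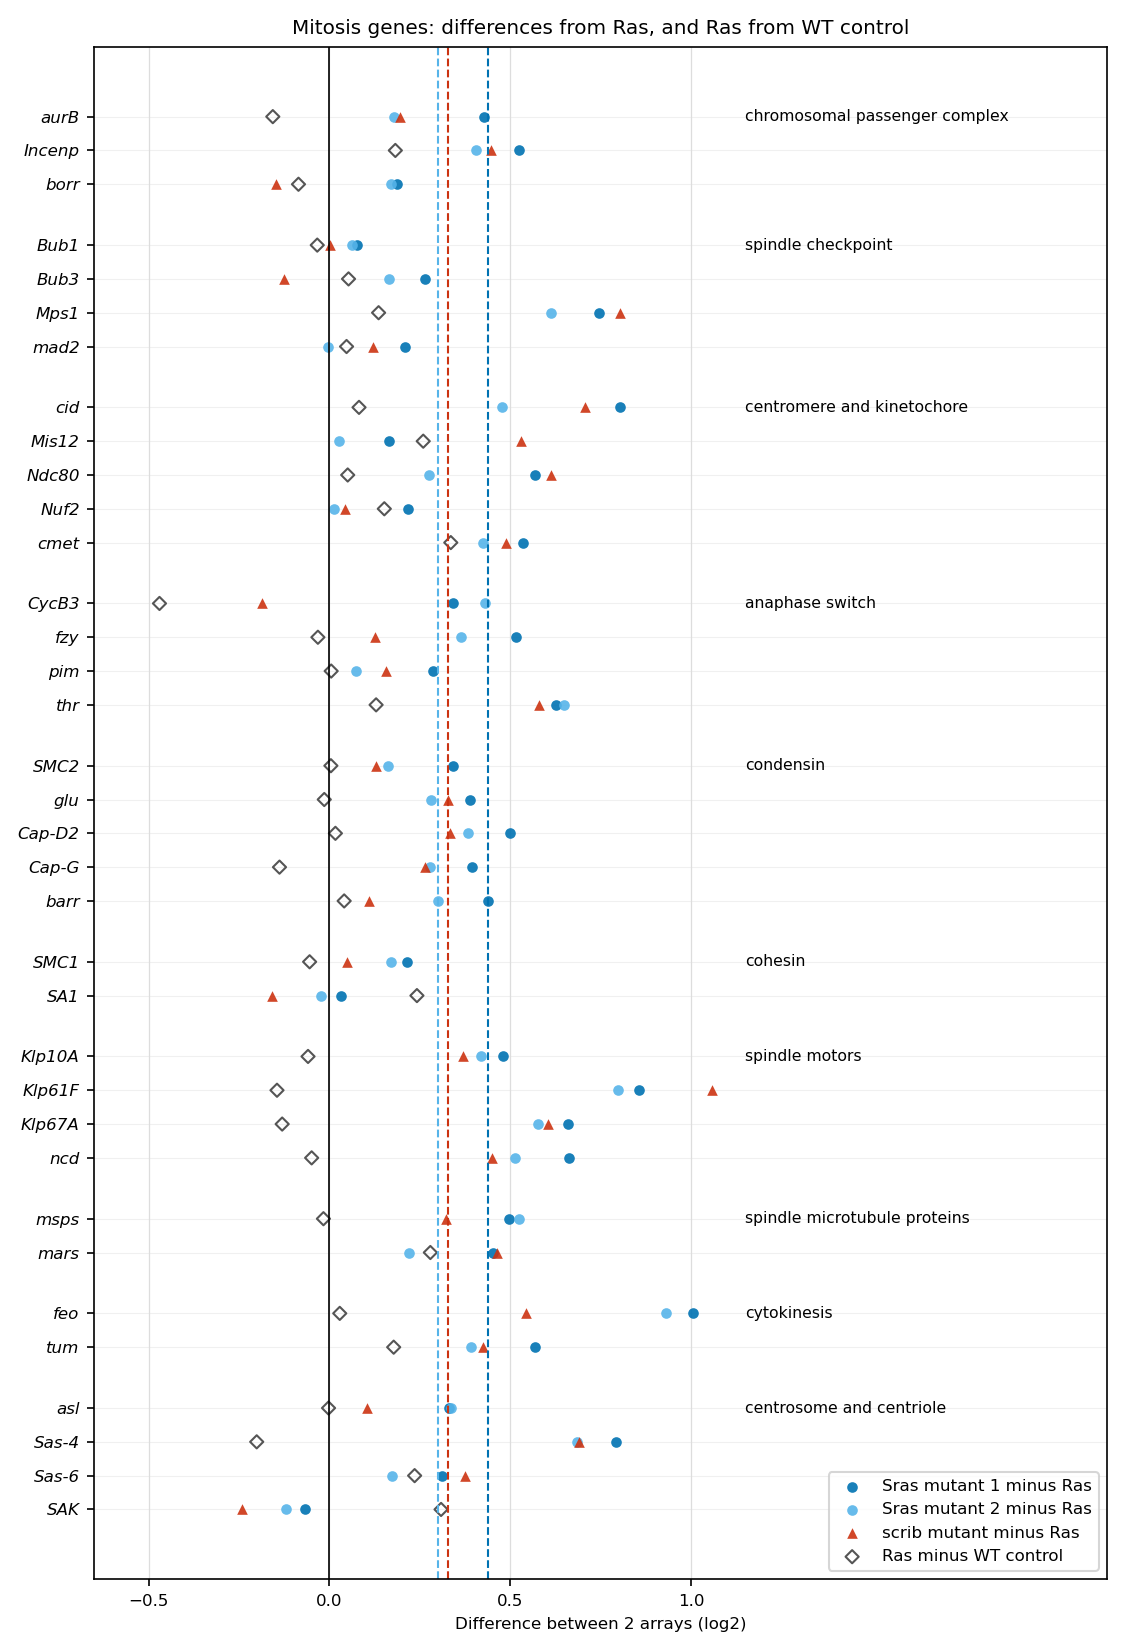
Log2 difference between arrays (x axis) for each of 35 mitosis genes (rows, grouped by role): Sras mutant 1, Sras mutant 2 and scrib mutant minus Ras as filled symbols, Ras minus WT control as open diamonds, dashed lines at the median of each mutant comparison. Klp61F, Mps1 and Sas-4 lie to the right in all 3 mutant arrays and SAK lies below 0 in all 3; with centring on eye and antennal disc genes all Sras points would move left past 0 and all scrib points to the right, with their order kept.

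Among the spindle motors, Klp61F, the kinesin-5 that slides antiparallel microtubules apart to keep the spindle bipolar, stood out. It read 9.62 in WT control, 9.47 in Ras, 10.33 in Sras mutant 1, 10.27 in Sras mutant 2 and 10.53 in the scrib mutant. The mutant arrays lay 0.86, 0.80 and 1.06 above Ras, the highest member difference in the scrib mutant and the only one past 2-fold there (9.26% of genes kept were), and 0.71, 0.65 and 0.91 above WT control. Klp67A, a kinesin-8 that shortens microtubules at the kinetochore, read 9.54 and 9.41 in WT control and Ras, and 10.07, 9.98 and 10.01 in Sras mutant 1, Sras mutant 2 and the scrib mutant. Its mutant values lie within 0.08 of each other, all above both controls. The minus-end motor ncd, a kinesin-14 that focuses spindle poles, read 9.99 and 9.94 in the controls against 10.60, 10.45 and 10.39. Klp10A, a kinesin-13 that depolymerises microtubules at poles, was the lowest of the 4 motors against Ras in all 3 mutants, at 9.74 and 9.68 in the controls and 10.16, 10.10 and 10.05 in the mutants. All 4 motors measured were slightly lower in Ras than in WT control, by 0.05 to 0.14.

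Of the proteins that bind spindle microtubules, msps, the fly member of the XMAP215 family that promotes microtubule growth, read 11.43 in WT control, 11.41 in Ras, 11.91 in Sras mutant 1, 11.94 in Sras mutant 2 and 11.74 in the scrib mutant. The scrib value lay between the controls and the Sras mutants. For mars, related to the vertebrate spindle protein HURP, the values were 8.02, 8.30, 8.75, 8.52 and 8.77 in the same order. Here Sras mutant 2 was the lowest of the mutants, and Ras itself lay 0.28 above WT control.

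The cytokinesis gene feo, which encodes the PRC1-like protein that bundles microtubules of the central spindle, had the highest difference from Ras of any member in both Sras mutants. It read 10.74 in WT control, 10.77 in Ras, 11.77 in Sras mutant 1, 11.70 in Sras mutant 2 and 11.31 in the scrib mutant. The Sras arrays lay 1.01 and 0.93 above Ras, and Sras mutant 1 was the only array in which it passed 2-fold (2.01-fold), as no other member did there, against 4.04% of genes kept; in Sras mutant 2, 0 members did, against 4.96%. The scrib array lay in between, 0.54 above Ras. Its partner in the same structure, tum, the RacGAP subunit of centralspindlin that helps place the cleavage furrow, read 10.27 and 10.45 in the controls and 11.01, 10.84 and 10.87 in Sras mutant 1, Sras mutant 2 and the scrib mutant. For tum the 3 mutants were close together.

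The chromosomal passenger complex moves from centromeres to the central spindle and corrects faulty attachments. Incenp, its scaffold, read 10.42 in WT control, 10.60 in Ras, 11.13 in Sras mutant 1, 11.01 in Sras mutant 2 and 11.05 in the scrib mutant, so all mutants lay above both controls. The kinase subunit aurB read 10.16, 10.00, 10.43, 10.18 and 10.20 in that order. Sras mutant 2 and the scrib mutant lay within 0.04 of WT control, and Sras mutant 1 0.27 above it. The Borealin-like subunit borr read 10.75, 10.66, 10.85, 10.83 and 10.51. It was 0.15 lower in the scrib mutant than in Ras and 0.19 and 0.17 higher in the Sras mutants, so the subunits of this complex did not keep a common difference.

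The checkpoint genes were divided. Mps1, the kinase that starts checkpoint signalling at unattached kinetochores, read 7.01 in WT control, 7.15 in Ras, 7.90 in Sras mutant 1, 7.76 in Sras mutant 2 and 7.95 in the scrib mutant. It was at least 1.5-fold above both WT control and Ras on every mutant array, which held for 1 other member, Klp61F, and for 6.64% of genes kept. For Mps1 this rests on the quantile normalization. Its deposited values were 7.18, 7.33, 7.94, 7.81 and 7.75, short of 1.5-fold above Ras in Sras mutant 2 and the scrib mutant. Bub1, the kinase that recruits other checkpoint proteins, read 9.03, 9.00, 9.07, 9.06 and 9.00, the narrowest spread over the 5 arrays among the members. For mad2, whose product binds and restrains Fizzy, the values were 10.17, 10.22, 10.43, 10.21 and 10.34. Bub3, the binding partner of Bub1, read 12.19, 12.24, 12.51, 12.41 and 12.12, highest in the Sras mutants and lowest in the scrib mutant. With the exception of Mps1, these genes lay within 0.26 of Ras on every mutant array.

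At the centromere and kinetochore, cid, the histone H3 variant that marks fly centromeres, read 7.13 in WT control, 7.21 in Ras, 8.01 in Sras mutant 1, 7.69 in Sras mutant 2 and 7.92 in the scrib mutant. Its difference from Ras was 1.74-fold, 1.39-fold and 1.63-fold. The kinesin gene cmet, related to CENP-E, read 9.05, 9.39, 9.92, 9.81 and 9.87, and stood out by being already 0.34 higher in Ras than in WT control, the highest such value among members. The Ndc80 complex, which grips microtubules, gave unlike readings. Ndc80 read 9.07, 9.12, 9.69, 9.40 and 9.73, whereas its direct partner Nuf2 read 9.27, 9.42, 9.63, 9.43 and 9.46, within 0.22 of Ras on every mutant array. Mis12, which joins the Ndc80 complex to the centromere, read 8.54, 8.80, 8.96, 8.83 and 9.33, and was highest in the scrib mutant by 0.36.

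Among the genes of the switch into anaphase, thr, which encodes the regulatory partner of separase, read 7.45 in WT control, 7.58 in Ras, 8.20 in Sras mutant 1, 8.23 in Sras mutant 2 and 8.16 in the scrib mutant. The mutants differed from each other by at most 0.07 and from Ras by 0.58 to 0.65. For the scrib mutant this rests on the quantile normalization. In the deposited values thr read 7.71 in Ras, 8.26 in both Sras mutants and 8.01 in the scrib mutant. The fly securin gene pim, whose product blocks separase until anaphase, read 10.59, 10.59, 10.88, 10.67 and 10.75. The Cdc20 gene fzy read 10.62, 10.59, 11.10, 10.95 and 10.71 at its brightest probe set, with the scrib mutant nearer to the controls than to Sras mutant 1. Its other 2 probe sets read between 4.50 and 5.86 on all arrays, below the filter value, and give no second reading. CycB3, a B-type cyclin that promotes anaphase, read 9.91, 9.44, 9.78, 9.87 and 9.26. Of all members it lay furthest below WT control, at −0.47 in Ras and −0.65 in the scrib mutant, the only member difference from WT control of at least 1.5-fold downward. Both Sras mutants lay between Ras and WT control.

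Condensin was the most even of the larger groups. All 5 subunit genes measured lay above Ras on every mutant array (for the Sras mutants not when centred on disc genes), by 0.34 to 0.50 in Sras mutant 1, 0.16 to 0.38 in Sras mutant 2 and 0.11 to 0.33 in the scrib mutant, and 0 passed 1.5-fold. The ATPase subunit genes read 10.05, 10.06, 10.40, 10.22 and 10.19 (SMC2) and 9.67, 9.66, 10.05, 9.94 and 9.99 (glu, the fly SMC4) in WT control, Ras, Sras mutant 1, Sras mutant 2 and the scrib mutant. Both read alike in WT control and Ras and highest in Sras mutant 1. Of the other subunits, Cap-D2 read 9.18, 9.20, 9.70, 9.58 and 9.53, Cap-G read 9.64, 9.50, 9.89, 9.78 and 9.76, and barr, the kleisin that closes the ring, read 10.43, 10.47, 10.91, 10.77 and 10.58. Sras mutant 1 was the highest array for all 5 genes. This is not particular to condensin: Sras mutant 1 lay above Sras mutant 2 for 31 of 35 members and above the scrib mutant for 29. The cohesin genes were closer to Ras: SMC1 read 9.78, 9.73, 9.94, 9.90 and 9.78, and SA1 (the gene listed as SA, for Stromalin) read 9.48, 9.73, 9.76, 9.70 and 9.57. Neither lay more than 0.22 from Ras on any mutant array.

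At the centrosome, Sas-4, which ties the growing centriole to the surrounding matrix, read 8.04 in WT control, 7.84 in Ras, 8.63 in Sras mutant 1, 8.52 in Sras mutant 2 and 8.53 in the scrib mutant. It was at least 1.5-fold above Ras on all 3 mutant arrays, as were Mps1 and Klp61F and 7.95% of genes kept. In the deposited values Sas-4 read 7.92 in Ras and 8.45 in the scrib mutant, short of 1.5-fold. SAK, the fly Plk4 kinase that starts centriole duplication, read 8.26, 8.57, 8.51, 8.45 and 8.33. It was the only member below Ras in all 3 mutants (by 0.07, 0.12 and 0.24), as were 28.3% of genes kept. After quantile normalization SAK lay above WT control in all 3. In the deposited values it read 8.25 in WT control and 8.22 in the scrib mutant, so that order did not hold there. Sas-6, which forms the centriolar cartwheel, read 7.67, 7.90, 8.21, 8.08 and 8.28. The scaffold gene asl, whose product brings SAK to the centriole, read 9.06, 9.05, 9.39, 9.39 and 9.16. The genes for this one duplication pathway therefore ranged from 0.79 above Ras (Sas-4) to 0.07 below it (SAK) in Sras mutant 1.

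**Figure D3:**
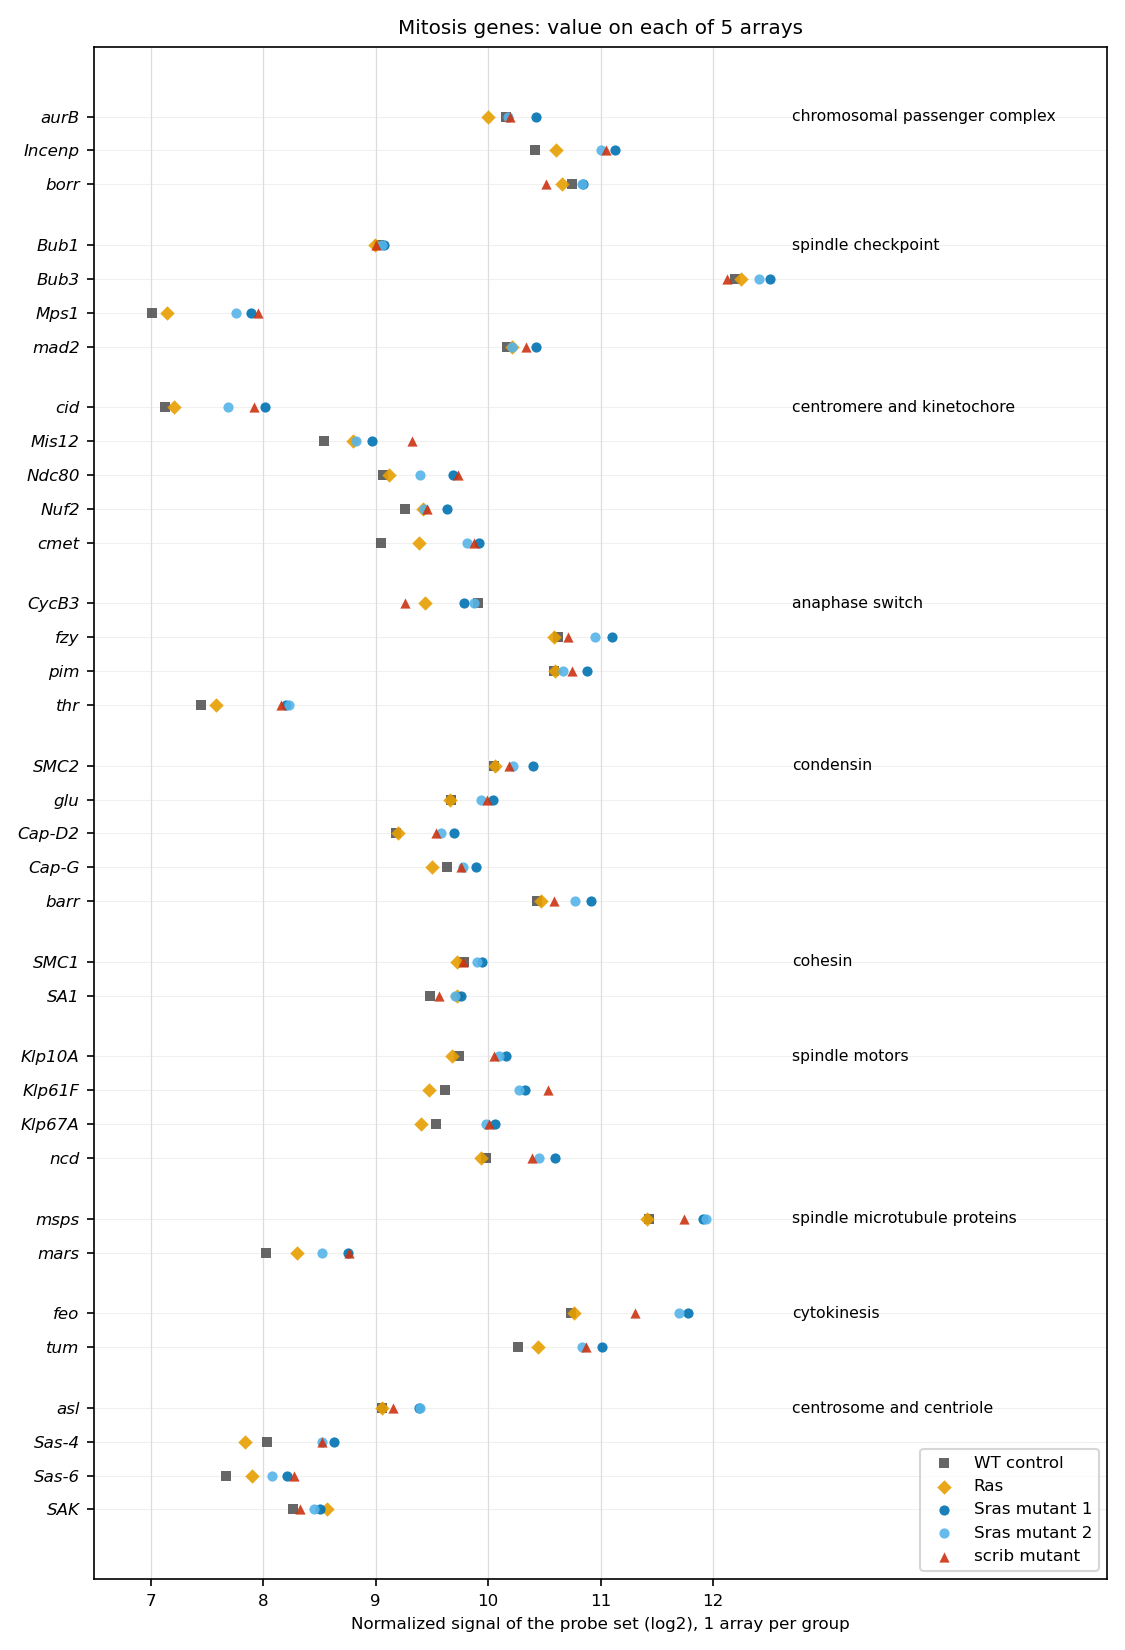
Normalized log2 signal (x axis) of 35 mitosis genes (rows, grouped by role) on each of the 5 arrays, 1 array per group. Positions are to be compared within a row only, since signals of different probe sets are not on a common scale; after quantile normalization WT control and Ras lie close together in most rows, with the 3 mutant arrays to their right, an order that is lost for the Sras mutants when arrays are centred on eye and antennal disc genes.

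The comparison of Ras tumors with control discs asked what Ras overexpression alone did. Mitosis genes read nearly alike in both. The median difference was 0.02 (also 0.02 over all genes kept), 20 of 35 members lay above WT control (54.6% of genes kept), and 27 lay within 0.2 log2 of it (64.9% of genes kept). At least 1.5-fold higher or lower were 0 members, against 2.76% and 4.27% of genes kept. The members ranged from −0.47 for CycB3 to 0.34 for cmet, with SAK (0.31), mars (0.28), Mis12 (0.26) and SA1 (0.24) next to the top and Sas-4 (−0.20) next to the bottom. Centring on the eye and antennal disc genes moved the median to −0.18, with 6 members above 0, 0 at least 1.5-fold higher and 1 lower, and the median of all genes kept to −0.18 too. The 11 hemocyte markers had a median Ras minus WT control difference of −0.76, and their part in these values was not tested.

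The Sras mutants were also set against the scrib mutant, the positive control, which does not involve the Ras or WT control array. The salivary gland and gut markers had medians of 6.53, 9.09 and 6.16 in these 3 arrays, against 14.25 in Ras. Sras mutant 1 lay above the scrib mutant for 29 of 35 members, with a median of 0.13 (50% of genes kept and a median of 0.00). Sras mutant 2 did so for 18 of 35, with a median of 0.01 (46.9% and −0.03). At least 1.5-fold higher were 0 members in Sras mutant 1 and 1 in Sras mutant 2, CycB3, against 12.8% and 13.1% of genes kept, and 0 were lower by as much, against 10.9% and 11.5%. After centring on the eye and antennal disc genes (shifts of 0.98, 0.95 and −1.44 in Sras mutant 1, Sras mutant 2 and the scrib mutant), both medians were negative (−2.28 and −2.37), with 0 members higher and 35 at least 1.5-fold lower in each. All genes kept then had medians of −2.41 and −2.41, with 96.9% and 96.8% at least 1.5-fold lower, so the members stayed 0.13 and 0.04 above them, as without the centring. The order among members is not changed by a centring of the quantile-normalized values either. CycB3 (0.53 and 0.61), feo (0.46 and 0.39), Bub3 (0.39 and 0.29), borr (0.33 and 0.32) and fzy (0.39 and 0.24) stood at the Sras end. At the scrib end stood Mis12 (−0.36 and −0.50), Klp61F (−0.20 and −0.26) and Ndc80 (−0.04 and −0.34). Each pair gives Sras mutant 1 and then Sras mutant 2 minus scrib. CycB3, feo and borr were the 3 members at least 0.3 above scrib in both Sras mutants, and Mis12 the only one at least 0.3 below (19.7% and 21% of genes kept).

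**Figure D4:**
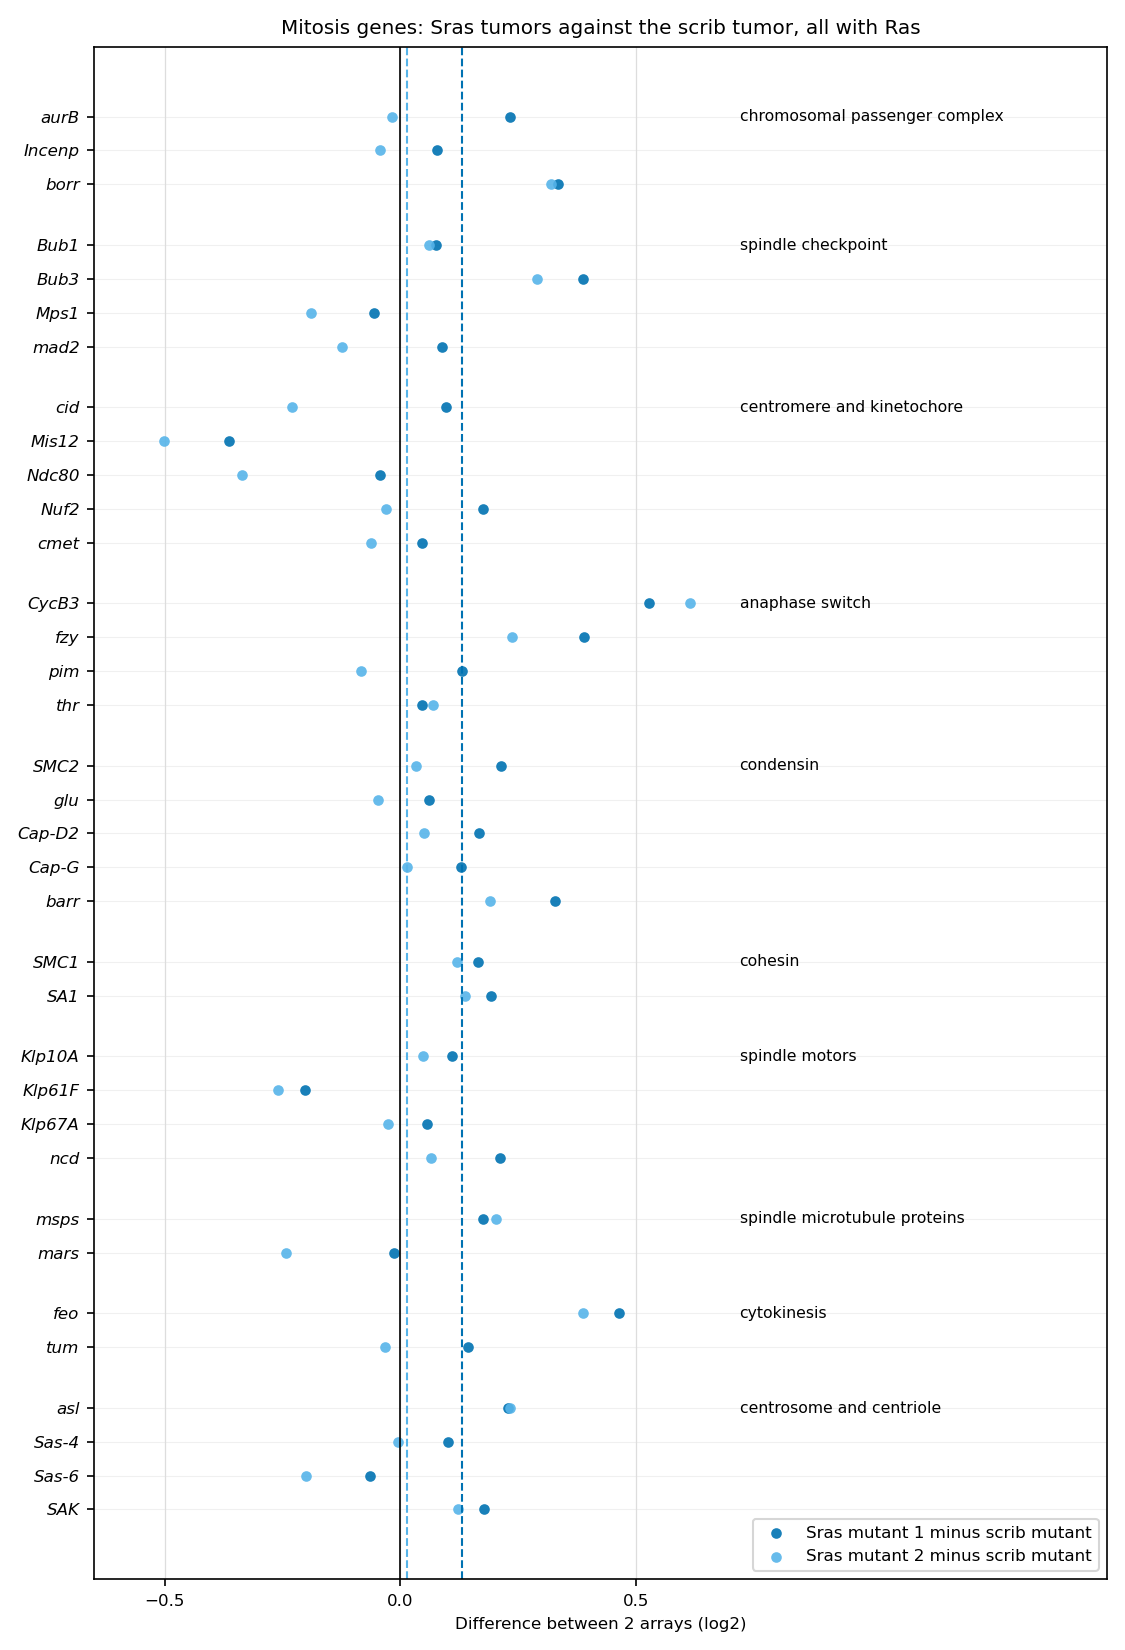
Log2 difference (x axis) of each of 35 mitosis genes (rows, grouped by role) between Sras mutant 1 or Sras mutant 2 and the scrib mutant, all tumors with Ras, 1 array each, with dashed lines at the medians of 0.13 and 0.01. CycB3 and feo lie furthest to the right and Mis12 furthest to the left in both; centring arrays on eye and antennal disc genes moves every point below 0 and keeps the order.

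By the SD of the differences the Sras mutants were the closest pair of arrays, and their difference is the nearest guide to the spread. They are 2 mutants and not replicates. Their salivary gland and gut marker medians were 6.53 and 9.09, and their fat body marker medians 10.01 and 11.37. By the member median, Ras and WT control were closer (0.02). Sras mutant 1 lay above Sras mutant 2 for 31 of 35 members, where 58.7% of genes kept did. The median difference was 0.11, against 0.02 over all genes kept, and the SD was 0.091 over members and 0.243 over all genes kept. Members ranged from −0.09 (CycB3) to 0.33 (cid), and 0 were at least 1.5-fold apart in either direction (0.841% of genes kept higher and 1.8% lower). A shift of about 0.1 in the whole group was thus seen even between these 2 arrays.

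The comparisons with Ras share the Ras array, so their likeness is not a result. There are 4 pairs of comparisons that share no array. Over the 35 members, Sras mutant 1 minus Ras correlated with the scrib mutant minus WT control at r = 0.61, and Sras mutant 2 minus Ras with it at r = 0.46. Sras mutants 1 and 2 minus WT control correlated with the scrib mutant minus Ras at r = 0.80 and 0.75. Over all 7850 genes kept the same pairs gave r = 0.75, 0.75, 0.73 and 0.75, and genes are not independent replicates. All values come from arrays normalized together, and the salivary gland, muscle and fat body marker medians are high in both Ras and WT control. In the first pair, 8 and 11 members were at least 1.5-fold higher and 4 were so in both, which is 50% of the 8 and 36.4% of the 11, against 67.2% and 36.9% for all genes kept. In the second, 5 and 11 were, with 3 in both (60% and 27.3%, against 66.1% and 38%). In the third, 12 and 6 were, with 5 in both (41.7% and 83.3%, against 60.3% and 45.3%). In the last the counts were 6 and 6, with 2 in both (33.3% of each, against 62.1% and 45.1%).

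**Figure D5:**
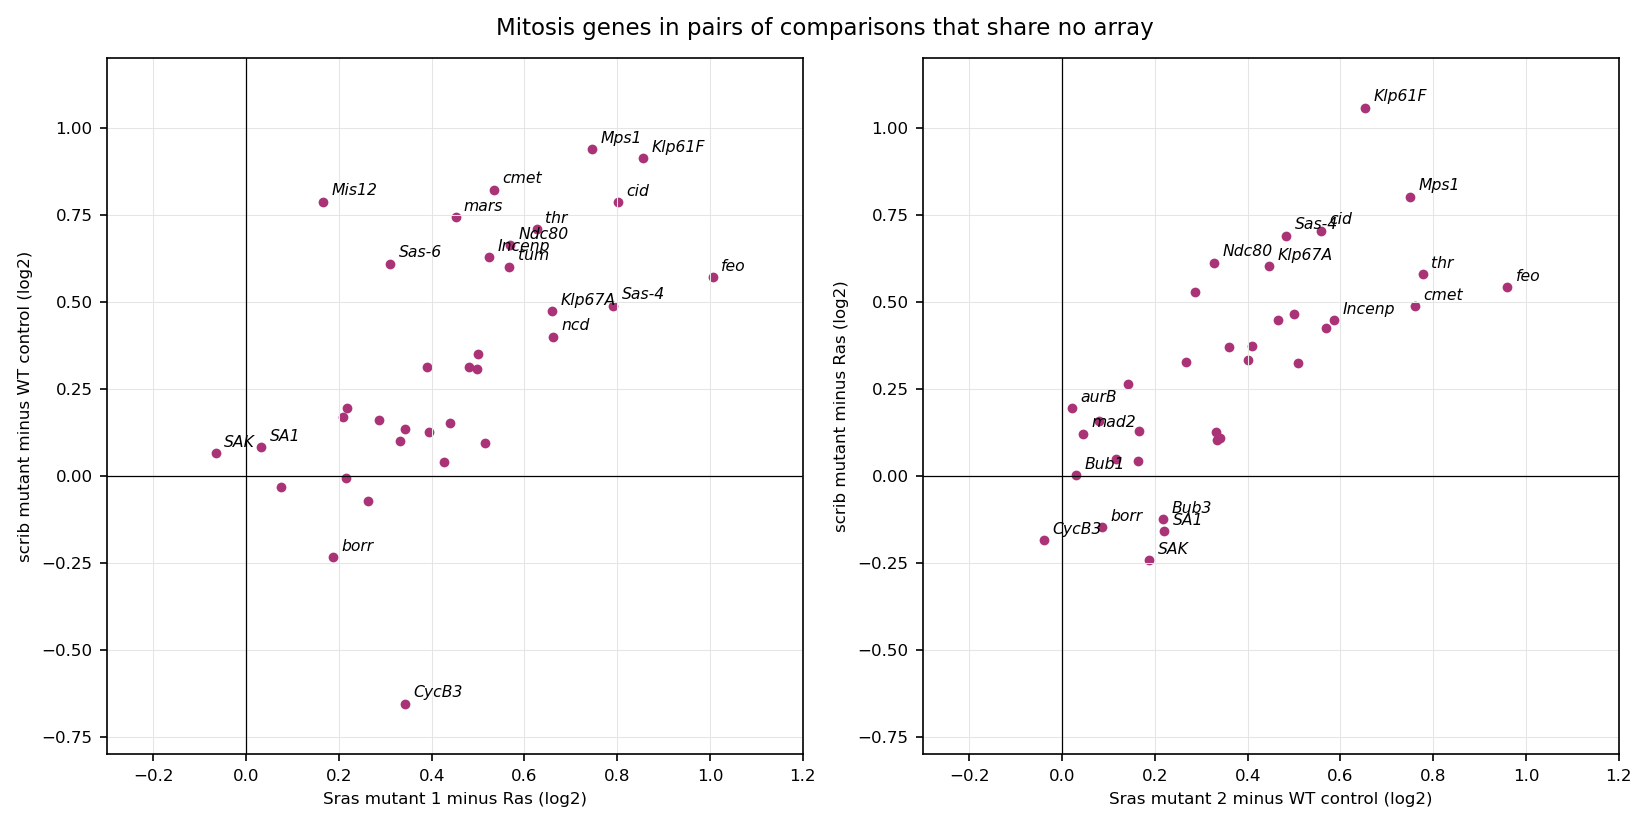
Each point is a mitosis gene (35 in each panel), placed by its log2 difference in 2 comparisons that share no array: Sras mutant 1 minus Ras against scrib mutant minus WT control (left), and Sras mutant 2 minus WT control against scrib mutant minus Ras (right). Klp61F and Mps1 lie at the upper right of both panels, and CycB3 lies at the bottom left of the cloud on the right and alone at the bottom on the left; centring on eye and antennal disc genes shifts the whole cloud leftward and upward without changing its shape.

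Other genes of mitosis, from a list of 86 that was written with earlier results known, were mostly above Ras too on the same scaling. A centring on eye and antennal disc genes would shift them by the same amounts as the members. Their signs against Ras depend on it too. Of the 86, 71 had a probe set and 67 were kept. In Sras mutant 1, 60 of 67 lay above Ras with a median of 0.30, 15 at least 1.5-fold higher and 1 lower. The counts were 56 of 67, 8 and 1 in Sras mutant 2 (median 0.28), and 51 of 67, 12 and 1 in the scrib mutant (median 0.28). Of all genes kept, 61.5%, 58.7% and 57.5% lay above Ras. At least 1.5-fold higher were 13.5%, 14.1% and 22.1%, and lower 14%, 14.7% and 19.2%. The share of this list past 1.5-fold higher was thus above the background in Sras mutant 1 only. The gene lower in each was fzr, the fly Cdh1, which directs the anaphase-promoting complex after mitosis and in endocycles. It read 9.94 in WT control, 9.73 in Ras, 9.14 in Sras mutant 1, 9.02 in Sras mutant 2 and 8.50 in the scrib mutant, with the salivary gland and fat body markers lower on the same 3 arrays; their part was not tested. The highest differences from Ras were those of mud, the fly counterpart of the spindle-orienting protein NuMA (1.07, 0.94 and 1.03 in Sras mutant 1, Sras mutant 2 and the scrib mutant), and, in the Sras mutants, of gwl, the Greatwall kinase gene (0.97 and 0.92).

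The separase gene Sse, whose product cuts cohesin, lay 0.88 above Ras in Sras mutant 1, and Cap-H2, a condensin II subunit gene, lay 0.85 and 0.87 above it in Sras mutant 2 and the scrib mutant. The formin gene dia, which nucleates actin in the cleavage furrow and elsewhere, read 9.52 in Ras, 9.74 and 9.76 in the Sras mutants and 10.88 in the scrib mutant, a difference of 1.36 from Ras that the Sras mutants did not show (0.22 and 0.24). At the low end, besides fzr, stood Septin2 (−0.08) and san (−0.05) in Sras mutant 1, wac (−0.22) and san (−0.20) in Sras mutant 2, and the pericentrin-like gene Plp (−0.52) and endos (−0.34) in the scrib mutant. Between Ras and WT control this list ranged from dgt5 (−0.35), fzr (−0.20) and ana2 (−0.18) to Cep97 (0.46), pds5 (0.41) and Klp31E (0.30). In it 0 genes were 1.5-fold apart, against 2.76% of genes kept higher and 4.27% lower.

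A list of DNA replication genes (30 kept of 36) was close to the mitosis members on the same scaling. Its medians against Ras were 0.49, 0.39 and 0.33 in Sras mutant 1, Sras mutant 2 and the scrib mutant, beside 0.44, 0.30 and 0.33 for the mitosis members, with 12, 7 and 10 of 30 genes at least 1.5-fold higher, beside 8, 5 and 6 of 35. Of all genes kept, 13.5%, 14.1% and 22.1% were at least 1.5-fold higher in these arrays. The lists were not tested against each other.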

How the data were processed

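The authors deposited 18952 log2 values per array, 1 per probe set, for 5 arrays; the sources used here do not state their background correction, normalization or probe summary, and their range shows the scale. Array medians differed by up to 0.153, so the arrays were quantile normalized together, after which a shift of most genes one way is invisible. Probe sets with exactly 1 symbol (13646) were named through gene identifiers in the Release 6 table, which held 13543 of them; SA was matched to SA1 by hand. A gene took its probe set with the highest mean, and was kept where its highest value reached the 40th percentile of gene values. Differences were counted at 1.5-fold and 2-fold, with no test, since each group is 1 array. Members, gene lists and rules were chosen with earlier results of these data known. All probed members could be named, with values on all arrays; of the other mitosis genes, the 3 highest and lowest against Ras, and in Ras against WT control, are named. Alternatives were the deposited values, centring on array medians, on 12 disc markers or (chosen after seeing the data) on kept genes, other filters, mean probe sets, WT control as baseline and 2-fold. No sequences were used here. The counting was tested on simulated data. Python 3.11.15, NumPy 2.4.6, pandas 2.3.3 and Matplotlib 3.10.9 were used.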

Additional observations from a re-analysis of the deposited data

Results flagged for a closer look

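For 3 members both Sras mutants lay above Ras and the scrib mutant below it. Each did so by more than 0.091, the SD over members of the difference between the Sras mutants. That SD is a spread over genes in the closest pair of arrays, and not an error of these differences. For Ras minus WT control the SD over members was 0.165, which only CycB3 passed on all 3 mutant arrays. The difference was not tested, since each group is 1 array. CycB3, the anaphase cyclin gene, lay 0.34 and 0.43 above Ras in the Sras mutants and at −0.18 in the scrib mutant. For borr, of the chromosomal passenger complex, the values were 0.19, 0.17 and −0.15, and for the checkpoint gene Bub3 they were 0.26, 0.16 and −0.12. The sign of each rests on the scaling: after centring on eye and antennal disc genes the Sras values are below 0 and the scrib values above it. How far these genes lay below the member median in the scrib mutant (−0.51, −0.48 and −0.45 for CycB3, borr and Bub3) does not depend on that centring. They were picked for low scrib values, so this only describes them. SAK (−0.57) and SA1 (−0.49) lay about as far below that median there. In Sras mutants 1 and 2, borr (−0.25 and −0.13) and Bub3 (−0.18 and −0.14) were below the member median too. CycB3 lay at −0.10 and 0.13. Of all genes kept, 10.2% lay above Ras in both Sras mutants and below it in the scrib mutant.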

How the results depend on the processing

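No paired analysis was possible because each group has 1 array, and no array could be left out for the same reason. Medians and counts of the mitosis members stayed close to those reported without the filter on dim genes and with averaged probe sets. They also did with arrays centred on the median of kept genes, a setting chosen after seeing the data. A stricter filter at the 50th percentile kept 33 members, with similar medians. Of these, 6, 4 and 4 were at least 1.5-fold above Ras in Sras mutant 1, Sras mutant 2 and the scrib mutant. Among genes kept, 11.6%, 12.6% and 18.95% were. With the deposited values, 3 members in place of 6 were at least 1.5-fold above Ras in the scrib mutant, where 17.1% of genes kept were. Mps1, cid and Sas-4 fell short. Centring each array on its median raised the medians against Ras to 0.56, 0.41 and 0.45 in Sras mutant 1, Sras mutant 2 and the scrib mutant. The medians of all genes kept were then 0.19, 0.15 and 0.19. The count at least 1.5-fold above Ras in Sras mutant 1 rose to 16 of 35, where 16.4% of genes kept were. Centring on the eye and antennal disc genes gave medians of −0.68, −0.79 and 1.62 against Ras, with 0, 0 and 35 members at least 1.5-fold higher, −0.18 for Ras minus WT control, and −2.28 and −2.37 for Sras mutants 1 and 2 minus the scrib mutant; all genes kept moved by the same amounts, to −1.01, −1.01, 1.41, −0.18, −2.41 and −2.41, so the offset of the members from all genes did not change. At 2-fold the counts above Ras were 1, 0 and 1, against 4.04%, 4.96% and 9.26% of genes kept. With WT control as the baseline, 11 members were at least 1.5-fold higher in the scrib mutant, against 24.5% of genes kept. Without replicates, differences near 0.1 cannot be told from array-level shifts.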
